A study of Mus musculus with 7 samples.

Results

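The keratin genes (Krt) and the keratin-associated protein genes (Krtap) were placed against the lamin-associated domains (LADs) of mouse embryonic fibroblasts. LADs are long stretches of chromatin at the edge of the nucleus, where a meshwork of lamin proteins lines the inner membrane. Members were the protein-coding genes of the RefSeq table with the symbol Krt or Krtap followed by a digit, which gave 109 of the 21887 protein-coding genes on the placed chromosomes: 53 Krt and 56 Krtap genes on 6 chromosomes. The study profiled cells named iMEF, described as independently derived mouse embryonic fibroblast lines of a single mouse colony, by CUT&RUN, in which an antibody directs a nuclease to cut and release the DNA around its target. The 7 libraries comprised 2 for Lamin B1, 2 for control IgG, 2 for H3K9me2 that differ in the antibody, and 1 for H3K14ac. The values below come from the authors' single LAD list, whose name calls it wild type and merged. No treatment or allele is named in the labels, and the group behind the list is iMEF cells profiled with an antibody to Lamin B1. The list holds positions and no expression values, so the labelled cell type was not checked against marker genes. The list had no values per library, so no count below has a replicate error or a test, and the read depth is unknown.

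Keratins build the intermediate filaments of epithelial cells, and each filament pairs a type I with a type II keratin. Type I genes lie in a cluster on mouse chromosome 11 and type II genes in a cluster on chromosome 15, next to the type I gene Krt18. Keratin-associated proteins form the matrix around the keratin filaments of the hair shaft. Their families are grouped by composition into high-sulfur, ultrahigh-sulfur and high-glycine-tyrosine proteins. Embryonic fibroblasts are mesenchymal cells, which are known for filaments of vimentin in place of keratin.

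The stretches below show the 120 bases before the transcription start of 11 members, because promoter sequence is compared between the Krtap clusters inside and outside LADs further on. They come from the RefSeq promoter table of the mm10 build (GRCm38.p6), run 5′ to 3′ on the strand of the gene, and were chosen after their values were seen. Capitals mark the motif TATAAA and every CG dinucleotide.
Krtap24-1 (chr16:88612280-88612399, minus strand, in a LAD): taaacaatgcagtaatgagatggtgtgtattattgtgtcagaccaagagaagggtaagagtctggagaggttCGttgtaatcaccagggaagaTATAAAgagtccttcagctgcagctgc
Krtap19-1 (chr16:88869411-88869530, minus strand, in a LAD): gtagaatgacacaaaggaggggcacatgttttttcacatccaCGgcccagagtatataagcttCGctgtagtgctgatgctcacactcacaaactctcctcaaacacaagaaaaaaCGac
Krtap6-3 (chr16:89083904-89084023, plus strand, in a LAD): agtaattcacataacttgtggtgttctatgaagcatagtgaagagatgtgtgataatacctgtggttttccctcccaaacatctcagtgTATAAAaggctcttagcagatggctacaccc
Krtap11-1 (chr16:89571184-89571303, minus strand, in a LAD): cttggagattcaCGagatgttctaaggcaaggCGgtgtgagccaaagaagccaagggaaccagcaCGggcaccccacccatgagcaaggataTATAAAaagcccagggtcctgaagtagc
Krtap3-3 (chr11:99550864-99550983, minus strand, outside LADs): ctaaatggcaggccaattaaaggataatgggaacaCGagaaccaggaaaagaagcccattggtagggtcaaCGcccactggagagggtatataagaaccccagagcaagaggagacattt
Krtap4-1 (chr11:99628240-99628359, minus strand, outside LADs): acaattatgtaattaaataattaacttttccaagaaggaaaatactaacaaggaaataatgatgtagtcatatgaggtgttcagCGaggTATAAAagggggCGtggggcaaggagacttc
Krtap17-1 (chr11:99993995-99994114, minus strand, outside LADs): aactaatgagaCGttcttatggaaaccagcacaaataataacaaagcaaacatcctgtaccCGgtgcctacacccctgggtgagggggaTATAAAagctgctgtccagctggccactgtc
Krtap5-2 (chr7:142176006-142176125, minus strand, outside LADs): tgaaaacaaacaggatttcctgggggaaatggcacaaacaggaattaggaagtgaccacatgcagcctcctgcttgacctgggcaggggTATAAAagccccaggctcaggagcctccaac
Krtap28-13 (chr1:83060810-83060929, plus strand, outside LADs): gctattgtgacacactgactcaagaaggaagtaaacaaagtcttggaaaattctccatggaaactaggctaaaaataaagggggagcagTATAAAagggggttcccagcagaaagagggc
Krt25 (chr11:99322952-99323071, minus strand, outside LADs): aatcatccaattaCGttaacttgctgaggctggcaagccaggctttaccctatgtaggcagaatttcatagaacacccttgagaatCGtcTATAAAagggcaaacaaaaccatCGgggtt
Krt18 (chr15:102028096-102028215, plus strand, outside LADs): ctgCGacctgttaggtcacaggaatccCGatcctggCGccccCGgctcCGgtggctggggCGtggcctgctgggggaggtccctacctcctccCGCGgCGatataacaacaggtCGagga
Of the chromosome 16 genes, which lie in a LAD, Krtap24-1, Krtap6-3 and Krtap11-1 show a TATAAA motif and Krtap19-1 does not. Of the genes outside LADs, Krtap4-1, Krtap17-1, Krtap5-2, Krtap28-13 and Krt25 show it and Krtap3-3 does not. Only the exact letters were searched, and both Krtap19-1 and Krtap3-3 hold the near match TATATAAG, which was not counted. The stretches are examples and not rates: in the whole 300-base promoters, 16 of 23 Krtap genes of chromosome 16 (69.6%) and 20 of 21 of chromosome 11 (95.2%) had the motif. Krt18, a keratin of simple epithelia, has no TATAAA and has 10 CG dinucleotides in this stretch.

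None of the 53 Krt genes and 24 of the 56 Krtap genes (42.9%) had their midpoint in a LAD. Together this made 24 of 109 members (22.0%), near the 24.6% found for all 21130 protein-coding genes that lay between the first and the last LAD of their chromosome. The members' total is therefore close to the background, and the families and clusters differed in how they made it up. The 24 members in LADs were the 24 Krtap genes of chromosome 16, and they shared 1 LAD. The other 85 members lay in 5 gaps between LADs, on chromosomes 1, 7, 10, 11 and 15. The 109 genes thus occupied 6 places, of which 1 was a LAD, and neighbours within a place are not independent. No cluster held members both in and outside LADs, and 0 members were cut by a LAD border.

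**Figure D1:**
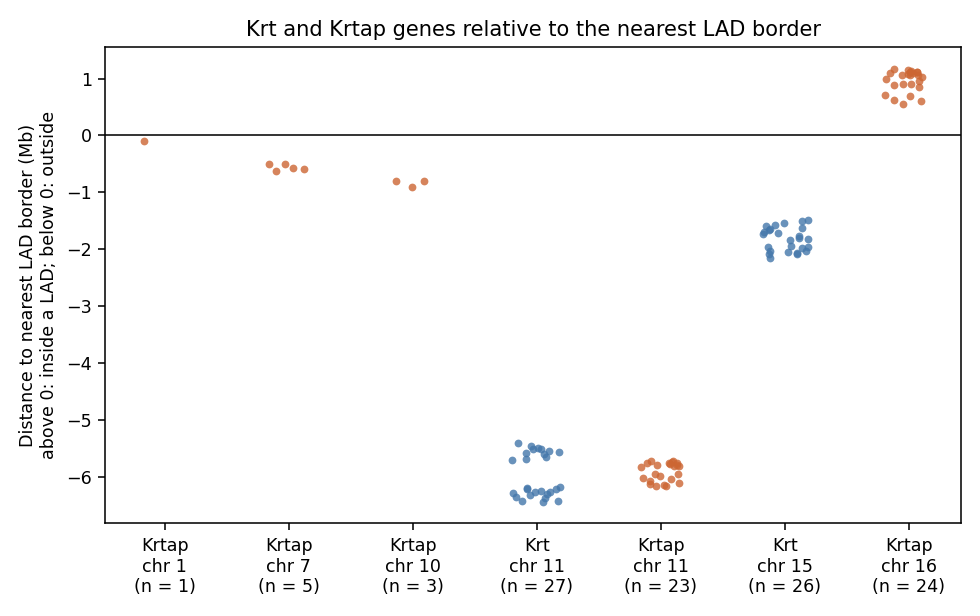
Distance in Mb from the midpoint of each Krt (blue) or Krtap (orange) gene to the nearest LAD border, by chromosome, with values above 0 inside a LAD and values below 0 outside. Each point is 1 gene with a random sideways shift. The 24 Krtap genes of chromosome 16 sit above 0, between 0.546 and 1.17 Mb inside, and the other 85 genes sit below 0.

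**Figure D2:**
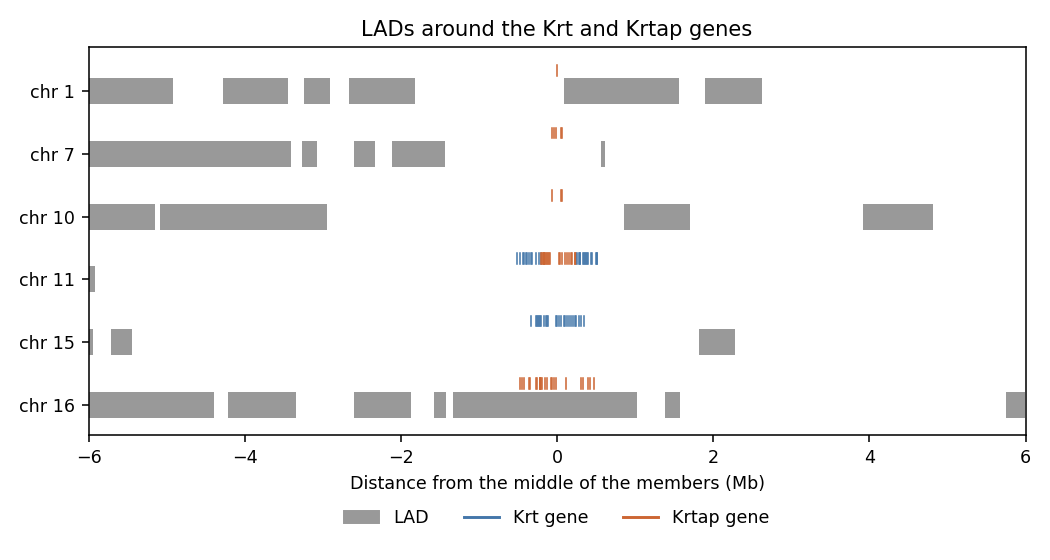
LADs (grey bars) within 6 Mb of the middle of the members on each chromosome, with Krt genes as blue and Krtap genes as orange ticks above them. The horizontal axis is the distance in Mb. The ticks of chromosome 16 stand over a LAD of 2.35 Mb, and those of chromosome 11 stand in a gap of 14.64 Mb.

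On chromosome 16 the Krtap genes filled the middle of a LAD. The cluster ran over 960.5 kb, from Krtap24-1 (chr16:88610709-88612279) to Krtap11-1 (chr16:89570176-89571183), and 100.0% of it was covered by a LAD of 2.35 Mb (chr16:87764390-90116882). The border of the domain was 846.3 kb from the first member and 545.7 kb from the last. Krtap11-1, a high-sulfur gene, was the member nearest to a border, at 546.2 kb. Krtap19-9b, of a high-glycine-tyrosine family, was the farthest, at 1167.6 kb, which put it 49.6% of the way through the domain. The median of the 24 genes was 1.05 Mb. The 24 genes are short, between 0.304 kb for Krtap19-4 and 1.57 kb for Krtap24-1, so the midpoint and the whole gene gave the same call for each. The largest interval without a member, 196.63 kb between Krtap20-2 and Krtap21-1, was also covered by the domain.

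Other genes shared the chromosome 16 domain. It held 62 protein-coding genes, or 26.4 per Mb, against 3.92 per Mb over all LADs of the list and a median of 1 gene per LAD, and 7 LADs held more. Besides the 24 members there were 34 genes with a Gm number or Rik clone as their symbol, all between the first and the last member, and 4 others. These 4 were Grik1, a kainate-type glutamate receptor subunit, the tight junction genes Cldn17 and Cldn8, and Tiam1, an exchange factor for Rac. Grik1, Cldn17 and Cldn8 lay wholly inside, and the distal border cut Tiam1, with 92.0% of its length in the domain. On the proximal side, Bach1, a transcription factor of the heme response, lay in a gap of 95.0 kb. On the distal side, Sod1, which encodes the copper and zinc superoxide dismutase, and Scaf4 lay in a gap of 352.5 kb. The LADs beyond these gaps measured 152.5 and 200.0 kb.

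The mixed cluster of chromosome 11 lay far from any LAD. It held 27 Krt and 23 Krtap genes over 1.04 Mb, from Krt222 (chr11:99232761-99244147) to Krt42 (chr11:100262882-100269951). The gap around it measured 14.64 Mb (chr11:93830377-108470330), the longest of chromosome 11 and rank 4 by length of the 1416 gaps in the list. Krt222 was nearest to a border at 5.41 Mb and Krt42 farthest at 6.44 Mb, with a median of 5.95 Mb over the 50 genes. The 23 Krtap genes formed a block of 443.9 kb inside the keratin cluster, from Krtap3-3 at 5.72 Mb to Krtap17-1 at 6.16 Mb from the border. They were thus outside LADs together with the keratins on both sides of them, Krt40 and Krt33a. Of the type I keratins named for their tissue, Krt10 of the suprabasal epidermis lay at 5.56 Mb and Krt14 of the basal layer at 6.38 Mb. Krt20, an intestinal keratin, lay at 5.60 Mb, and Krt19, a keratin of simple epithelia, at 6.31 Mb.

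The type II cluster of chromosome 15 was outside LADs as well, at a shorter distance. Its 26 Krt genes spanned 683.7 kb, from Krt80 (chr15:101348315-101370162) to Krt18 (chr15:102028216-102032026), in a gap of 7.27 Mb (chr15:96240878-103510854). The nearest border was on the distal side, where a LAD of 465.0 kb began. Krt18 was the closest gene at 1.48 Mb and Krt80 the farthest at 2.15 Mb, and the median was 1.81 Mb. Krt8, which pairs with Krt18 in simple epithelia, lay at 1.51 Mb, and Krt7, found in ducts and other simple epithelia, at 2.09 Mb. Krt5, the basal partner of Krt14, lay at 1.80 Mb, and Krt1, the suprabasal partner of Krt10, at 1.66 Mb. The 26 genes share 1 gap, so these distances describe 1 place. The shorter distance than on chromosome 11 depends on the short LADs beside this gap. Leaving out LADs under 500 kb removed the distal LAD and also the proximal one, of 262.5 kb. The median then moved to 5.96 Mb, against 5.95 Mb for the members of chromosome 11, so the difference was lost under that setting. Leaving out the distal LAD alone was not tried.

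The remaining Krtap genes were few and nearer to LADs than those of chromosome 11. The 5 Krtap5 genes of chromosome 7, an ultrahigh-sulfur family, spanned 130.0 kb, from Krtap5-2 (chr7:142174532-142176005) to Krtap5-4 (chr7:142303502-142304503). Krtap5-2 was 621.9 kb and Krtap5-4 493.2 kb from the nearest border. That border belonged to a LAD of 52.5 kb, and with LADs of at least 100 kb the median distance of the 5 genes went from 0.568 to 1.43 Mb. On chromosome 10, Krtap12-1 (chr10:77720586-77721256), Krtap10-4 and Krtap10-10 (chr10:77835947-77837251) lay at 912.4, 806.7 and 796.7 kb. These 3 genes lay within the bounds of Tspear, a gene of 200.9 kb of which 0% was in a LAD. Krtap28-13 on chromosome 1 (chr1:83060930-83061921) was the single member outside a cluster. It lay 93.3 kb from a LAD of 1475.0 kb, the smallest distance of all 109 members.

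The 2 clusters with most Krtap genes had a similar gene density of their own and different surroundings. Counting every protein-coding gene, the chromosome 16 span held 60.4 genes per Mb and the chromosome 11 span 62.7. In the 1 Mb on each side, the chromosome 16 cluster had 8 other genes, or 4.0 per Mb, of which 4 were in LADs, and 77.6% of those bases were in LADs. Most of that cover is the cluster's own domain, which reached 846.3 kb into 1 flank and 545.7 kb into the other. The 4 genes, Grik1, Cldn17, Cldn8 and Tiam1, also lay in it, so these values largely restate the place of the cluster. The chromosome 11 cluster had 78 genes in its flanks, or 39.0 per Mb, with 0 in LADs and 0% of the bases covered. Flanks of the chromosome 15 cluster held 57 genes, none in a LAD. Over all gaps of the list the density was 12.26 genes per Mb. Within 5 Mb on each side, LADs covered 44.3% on chromosome 16, with the cluster's own domain included, 0% on chromosome 11 and 4.6% on chromosome 15. The smaller sets had 28.4% on chromosome 7, 38.6% on chromosome 10 and 43.0% on chromosome 1, where the member itself was outside.

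By protein class, the hair matrix genes split by their place in the genome. All 15 genes of the high-glycine-tyrosine families (Krtap6, Krtap7, Krtap8, Krtap19, Krtap20, Krtap21 and Krtap22) were in the chromosome 16 LAD. None of the 17 ultrahigh-sulfur genes (Krtap4, Krtap5, Krtap9 and Krtap17) was in a LAD, and these lay on chromosomes 7 and 11. The 18 high-sulfur genes divided, with 8 on chromosome 16 in the LAD, and 7 on chromosome 11 and 3 on chromosome 10 outside. Classes follow family numbers and were not checked against protein sequence. Of the 6 Krtap genes of other families, Krtap16-3 on chromosome 16 was in the LAD. Within the high-sulfur class, LAD status thus followed the cluster. The high-glycine-tyrosine genes lay in 1 cluster and all inside, and the ultrahigh-sulfur genes lay in clusters that were all outside, so for these classes class and cluster cannot be told apart. Among the keratins, 0 of 5 genes of simple epithelia, 0 of 4 of basal and suprabasal epidermis, 0 of 4 of activated epidermis (Krt6a, Krt6b, Krt16 and Krt17), 0 of 7 of the inner root sheath of the hair follicle, 0 of 15 of the hair shaft and 0 of the other 18 were in a LAD, against 24.6% of all protein-coding genes. These classes are small and share the gaps of chromosomes 11 and 15, so their counts are not separate observations. The hair shaft keratins and the chromosome 16 Krtap genes are both products of hair-forming cells, and they differed in LAD status.

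**Figure D3:**
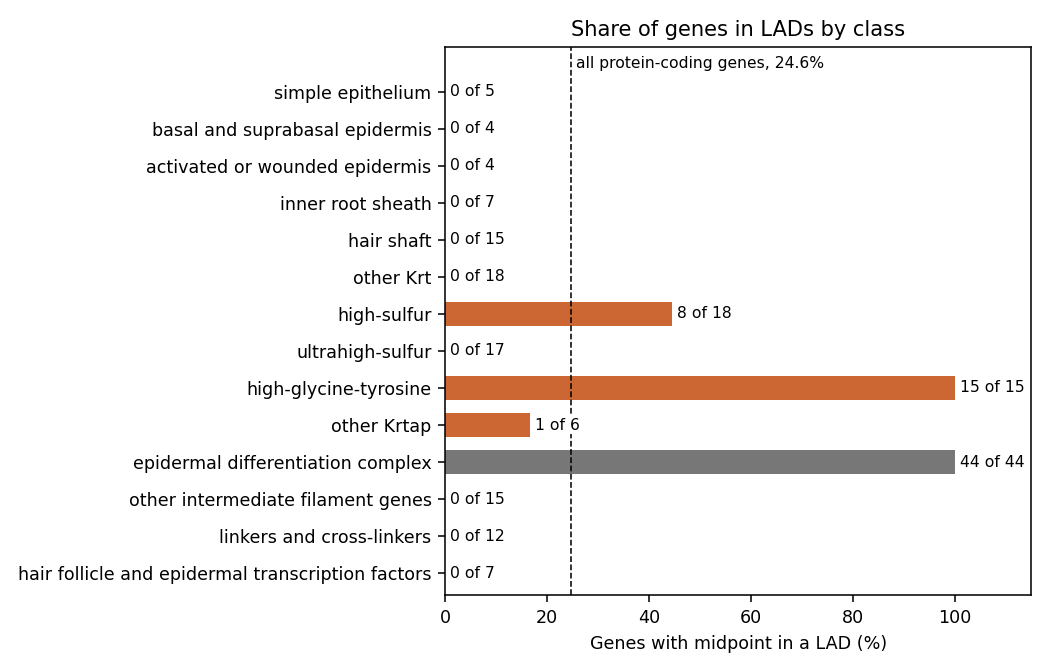
Share of genes in percent with their midpoint in a LAD, for classes of Krt (blue) and Krtap genes (orange) and for 4 other gene lists (grey), with the counts beside each bar. The dashed line marks the 24.6% of all protein-coding genes. The high-glycine-tyrosine class and the listed genes of the epidermal differentiation complex stand at 100%, and all Krt classes stand at 0%.

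Promoters were compared next, since promoter composition was not used to choose the members. The RefSeq table of 300-base promoters (250 bases before and 50 after the start) matched 87 of the 109 members, 36 Krt and 51 Krtap genes. Over all 17492 protein-coding genes with an entry, 23.9% had their start in a LAD. Promoters in LADs had a median GC share of 44.7% (quartiles 37.7% and 52.0%), and promoters outside had 59.0% (52.3% and 66.0%). The 23 Krtap promoters of chromosome 16 had a median of 40.7%, ranging from 34.3% for Krtap6-5 to 47.7% for Krtap26-1. The 21 of chromosome 11, outside LADs, had a median of 41.3%, ranging from 38.0% for Krtap31-2 and Krtap4-16 to 50.7% for Krtap17-1. The ranges of the 2 clusters thus overlapped, and the chromosome 11 promoters lay below the lower quartile of promoters outside LADs. Other genes within 1 Mb of the chromosome 11 cluster had a median of 60.3% (50 promoters), those near the chromosome 16 cluster 68.2% (6 promoters) and those near the chromosome 15 cluster 63.7% (39 promoters). The 5 Krtap5 promoters of chromosome 7 had a median of 48.3%. Genes of a cluster arose by duplication and share sequence, so these values are given without a test.

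**Figure D4:**
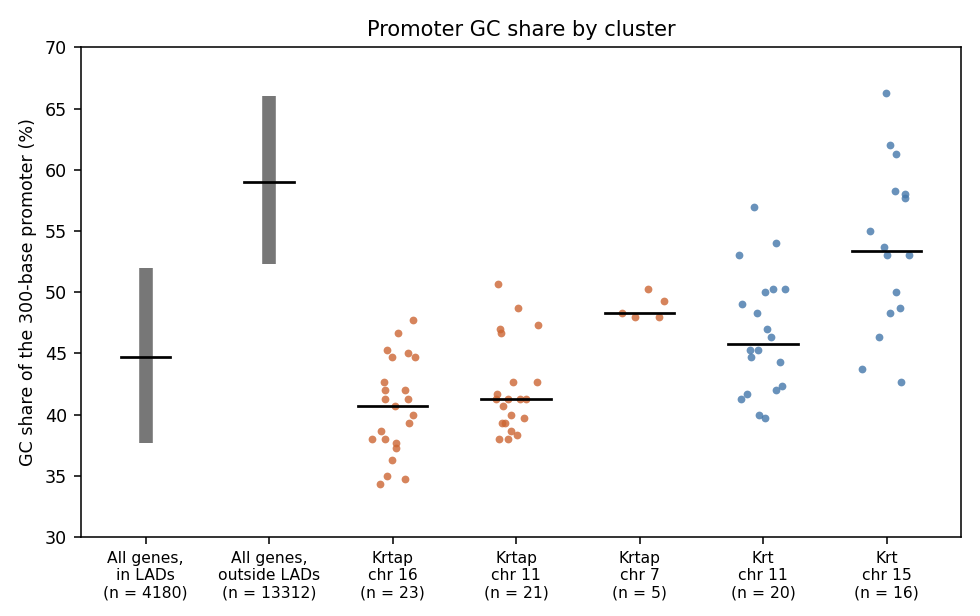
GC share in percent of the 300-base promoter. Grey bars give the quartiles and black lines the medians of all protein-coding genes in and outside LADs, and points give single Krtap (orange) and Krt (blue) genes with their medians. Krtap promoters of chromosomes 16 and 11 have medians of 40.7% and 41.3%.

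Keratin promoters of chromosomes 11 and 15 had higher median GC shares than the Krtap promoters of chromosomes 11 and 16. The median was 45.8% for the Krt genes of chromosome 11 (20 of 27 had an entry) and 53.3% for those of chromosome 15 (16 of 26). The Krtap5 promoters of chromosome 7 (48.3%) and the single Krtap10-4 promoter of chromosome 10 (55.0%) lay above the former. The highest value of all members was the 66.3% of Krt7, which had 21 CG dinucleotides in the 300 bases. Krt79 followed with 62.0% and Krt18 with 61.3%, and these had 3 and 17 CG dinucleotides. The median number of CG dinucleotides was 2 in promoters within LADs and 17 outside, 3 for Krtap genes of chromosome 16, 2 for those of chromosome 11 and 6 for Krt genes of chromosome 15.

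The motif TATAAA was frequent in these promoters. The 69.6% of the Krtap promoters of chromosome 16 and 95.2% of those of chromosome 11 that had it on the strand of the gene stood against 9.0% of all 17492 promoters, 17.3% of those in LADs and 6.4% of those outside. Searching both strands, where TATAAA and its reverse complement TTTATA can overlap, left both Krtap counts as they were and gave 13.3% of all promoters. The motif began 20 to 40 bases before the start in 10 of the 23 promoters of chromosome 16 and in 17 of the 21 of chromosome 11, against 2.8% of all promoters. In Krtap24-1 it began 27 bases before the start, in Krtap11-1 28, in Krtap8-1 29 and in Krtap6-3 31. Among keratins it was present on the strand of the gene in 13 of 20 promoters of chromosome 11 and in 4 of 16 of chromosome 15. A match describes the letters and not a site in use, and near matches were not counted.

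Other genes of epidermis and filaments gave a comparison. The epidermal differentiation complex of chromosome 3 encodes proteins of the cornified envelope, which keratinocytes build late in differentiation. The list held its Sprr and Lce genes and Lor, Ivl, Flg, Flg2, Hrnr, Rptn, Crnn, Tchh and Tchhl1. Genes off the list, such as the S100 genes, were not looked up, so the count does not cover the whole complex. All 44 listed genes had their midpoint in 1 LAD of 2.72 Mb (chr3:90748324-93470814), against the 24.6% of all protein-coding genes. Lor (loricrin) lay 1333.4 kb from the nearest border and Ivl (involucrin) 898.5 kb. The 14 Sprr genes, which encode small proline-rich envelope proteins, lay at 970.4 to 1251.7 kb, and the 21 Lce genes of late envelope proteins at 452.4 to 857.6 kb. The genes of the fused S100 type came nearer to the distal border, with Crnn at 323.5 kb, Flg2 at 261.5 kb, Flg (filaggrin) at 187.2 kb, Hrnr at 144.2 kb and Rptn at 74.2 kb. Tchh, which encodes trichohyalin of the inner root sheath, was 25.1 kb inside. The border cut Tchhl1, with 63.9% of the gene covered. Like the Krtap genes of chromosome 16, these are neighbours in a single domain and count as 1 place.

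None of the 3 other lists had a gene in a LAD, against 24.6% of all protein-coding genes, and the lists are small. They held 15 other intermediate filament genes, 12 genes of linker and cross-linking proteins, and 7 transcription factors of hair follicle and epidermis. Nefh of the filament list and Evpl of the linker list lay beyond the outermost LAD of their chromosome, where the 24.6% counts no gene. Vim, the vimentin gene, lay 763.8 kb from the nearest border, and Bfsp2, a lens filament gene, was the closest of its list at 41.1 kb. Jup, the plakoglobin gene, lay in the same gap as the chromosome 11 keratins, at 6.55 Mb. Hoxc13, a regulator of hair keratin genes, lay in the gap of the chromosome 15 keratins, at 585.9 kb. Trp63, the p63 gene of basal epidermis, lay 1.08 Mb from a border on chromosome 16, outside LADs.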

How the data were processed

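CUT&RUN was performed on iMEF cells, per the labels' protocols. The authors deposited 1 list of LADs with start and end positions in bp, without score, fold or p-value. Bowtie2 and mm10 are named in the submitters' processing notes. The domain caller, its threshold, the use of IgG or spike-in and the handling of reads that map to several places are not given in the sources used here. The last point bears on near-identical Krtap genes. Domain lengths came in steps of 2.5 kb (100.0% were within 125 bp of such a step), which limits the resolution of borders. The list was read as the pooled Lamin B1 result, from its name. H3K9me2, H3K14ac, IgG and values per library were not analysed here.

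Starts were converted to count from 1. Genes were taken from the RefSeq table of GRCm38.p6 (same build as mm10) and called in a LAD by their midpoint, with the background over the 21130 genes between the outermost LADs. Members within 500 kb of each other formed a cluster. Promoter starts came from the RefSeq promoter table, 1 per gene, the farthest upstream of its entries there. For 6 of the 87 members with an entry that start lay over 100 bp inside the gene's bounds, at most 42.34 kb (Krt78). All 6 were among the 36 Krt genes with an entry. Protein sequences were not used here, so Krtap classes follow family numbers. Genes were named by a rule: cluster ends, the nearest and farthest member, members outside clusters, members cut by a border or at a change of LAD status, listed keratins, and list genes in LADs. The other genes in the text, among them neighbours and single genes of lists outside LADs, were chosen after their values were seen. Members, classes and lists were chosen with earlier results of these data known. The look-up was tested on simulated data, and 300 of 300 points planted inside LADs and 300 of 300 in gaps were assigned as planted. Python 3.11.15, pandas 2.3.3 and numpy 2.4.6 were used.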

Additional observations from a re-analysis of the deposited data

How the results depend on the processing

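The 24 members in LADs rest on 1 domain: without it, a setting added after seeing the data, 0 of 56 Krtap genes, 0 of 109 members and 0% of the chromosome 16 cluster were in LADs. The counts of Krt (0) and Krtap genes (24) were unchanged with either end, the whole gene or any overlap. They were also unchanged with LADs of at least 100 or 500 kb, with LADs joined at 250 kb and with borders moved by 10 kb. With starts from the promoter table, 23 Krtap genes were called, because fewer genes have an entry. Counting synonyms and pseudogenes, also added later, put 1 Krt entry, the pseudogene Krt8-ps, in a LAD. The background of 24.6% moved to 22.5% with whole genes, 26.0% with any overlap, 21.5% with LADs of at least 500 kb, 28.3% with joining, and 25.4% and 23.9% with LADs extended or shortened. The median distance of all members to a border, 2.05 Mb, became 5.75 Mb with LADs of at least 500 kb. Other cluster distances gave the same clusters. No paired analysis was possible because the list has no values per replicate, which also prevented leaving out either library. The depth is unknown.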

Other observations

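Some keratin-like entries fell outside the symbol rule. The pseudogene Krt8-ps (chr7:23357094-23358779) lay in a LAD on chromosome 7, 697.1 kb from the nearest border, while Krt74, a transcribed pseudogene in this table, lay with the type II keratins of chromosome 15, outside LADs at 1752.0 kb. The gene 2310057N15Rik, which carries Krtap13-1 as a synonym, was in the chromosome 16 LAD, and Gm10272, with the synonym Krtap12-4, was outside on chromosome 10. Between the members lay 34 genes with Gm or Rik symbols on chromosome 16, 15 on chromosome 11, 12 on chromosome 10, 5 on chromosome 7 and 1 on chromosome 15. Their LAD status is that of the cluster span, which was wholly in or wholly outside a LAD. What these genes encode was not examined.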
